A study of Mus musculus with 11 samples.

Results

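JMJD1A (also called KDM3A) is a histone demethylase that removes methyl groups from lysine 9 of histone H3, a mark of silenced chromatin. Protein kinase A, the kinase downstream of β-adrenergic receptors, phosphorylates its serine S265. Here transcript levels were compared between cells carrying the phosphomimetic S265D-hJMJD1A, in which an acidic residue stands in place of the serine, and cells carrying S265A-hJMJD1A, which cannot be phosphorylated at that position. The comparison asks which transcripts differ with the residue at this position when everything else named in the labels is shared. It holds 2 of the 11 RNA sequencing samples of the series, 1 for each mutant, and neither was repeated.

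Both samples were im-scWAT cells, mouse preadipocytes from the inguinal subcutaneous white fat that had been immortalized with SV40 large T antigen. Both carried a retroviral short hairpin against the mouse Jmjd1a (sh-mJmjd1a, selected with G418) and a V5-tagged human JMJD1A driven by the LTR of a second retrovirus and selected with zeocin. Both were differentiated with rosiglitazone (ROS), a thiazolidinedione that activates PPARγ and turns these cells towards beige adipocytes, and were harvested on day 8. For spread between samples, WT-hJMJD1A at day 8 with ROS was available as a pair, WT A and WT B, with the same knockdown. The other samples used were S265D-H1120Y-hJMJD1A, a demethylase-dead form of S265D, and cells without hairpin or human JMJD1A, labelled with or without ROS, at day 0, before differentiation, and at day 8. The sources do not say whether the S265D and S265A cells were transduced, cultured or sequenced together, so the substitution and the particular culture cannot be told apart.

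Values were FPKM, a density of fragments scaled to exon length and to library size, on the sense strand. There was 1 representative transcript per symbol, 29955 in all. A gene was used when its FPKM was at least 1 in S265D or in S265A, which held for 12615 genes (42.1% of the symbols). The gene nearest the limit inside was Zfp174 at 1.003 FPKM in S265D, and the nearest outside was Zc3hav1l at 0.9997. The S265D sample rested on 4.95 Gb of mapped bases and the S265A sample on 5.29 Gb, so 1 FPKM over 2 kb of exon corresponded to about 9909.9 and 10589.8 bases. Differences are log2 ratios of (FPKM + 0.1), S265D over S265A, and a gene is called higher or lower when that ratio is at least 2 or at most 0.5. With 1 sample per mutant no test was possible. Lists and many single genes are therefore read against the distance between WT A and WT B. Genes given without WT values were not set beside it singly.

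The S265 codon lies in exon 9 of the 27 exons of the mouse transcript Kdm3a-201, on the minus strand of chromosome 6. The expressed protein was human, and the mouse coding sequence is shown because its build, mm9, is the one used for the read alignments. The stretch below runs over chr6:71569970-71570032, 5′ to 3′, with the codon of S265, a serine, in capitals.
Kdm3a: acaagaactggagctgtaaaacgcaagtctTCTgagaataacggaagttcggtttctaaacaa

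The transcript of the targeted gene did not sit at one level in the mutants. Kdm3a (chr6:71538966-71582899, mm9) had 23.0 FPKM in S265D and 13.0 FPKM in S265A, a log2 ratio of 0.82. The WT samples had 20.4 (WT A) and 17.9 FPKM (WT B), and S265D-H1120Y had 28.5 FPKM. S265A was thus the lowest of the 5 transduced samples, and the S265D to S265A difference was larger than that of the WT pair, 0.19. Reads of the human cDNA that align to mouse Kdm3a were not separated from those of the endogenous gene, so this row measures neither alone. The part of this difference in those of other genes was not tested. Among the other H3K9 methyltransferases and demethylases, none of the 23 list members used, Kdm3a included, was past 2-fold, and their median log2 ratio was -0.021. Kdm3a had the highest ratio of that list and Wiz, a zinc finger partner of the G9a methyltransferase, the lowest at -0.31.

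Cells of both mutants were adipocytes by their markers. Pparg, the master regulator of adipogenesis, had 100.4 FPKM in S265D and 81.4 in S265A. Adipoq, the hormone adiponectin, had 589 and 608 FPKM, and the fatty acid carrier Fabp4 had 22872 and 23908 FPKM. None of the 27 general adipogenic genes used was past 2-fold, with log2 ratios from -0.55 (Adig) to 0.82 (Aqp7, the glycerol channel) and a median of -0.054. Markers of cells other than adipocytes were mostly at or near 0. Of 12 macrophage and leukocyte markers, 6 were listed at 0 in both mutants, among them Ptprc (CD45), Emr1 and Itgam, and the list summed to 11.8 FPKM in S265D and 9.88 in S265A. The endothelial list summed to 2.82 and 2.37 FPKM, mostly from Pecam1. The skeletal muscle list summed to 14.1 and 7.11, from Mb and Acta1, with 7 of 10 members listed at 0 in both, Myod1 and Pax7 included. The smooth muscle list summed to 9.16 and 8.52, and the chondrocyte and osteoblast list to 62.7 and 49.3 FPKM, nearly all Alpl. The mesothelial list summed to 36.5 and 14.8 FPKM, nearly all from the keratin Krt19, while Upk3b was listed at 0 and Msln stood at 0.349 and 0.363 FPKM. In bulk RNA, fewer cells of a type and less RNA per cell cannot be told apart.

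Most genes were close in the mutants. Of the 12615 genes, 12054 (95.6%) were within 2-fold, and the median log2 ratio was -0.0095. In S265D 431 genes were called higher (3.42% of those used) and 130 lower (1.03%). These symbols lay at 406 and 122 separate loci, because some entries overlap. At 4-fold the counts were 60 and 17. Many of the called genes were weakly expressed, and 162 of the 561 genes past 2-fold either way (4.45%) did not reach 2 FPKM in either mutant. At 10 FPKM or more in at least one mutant, 119 genes were higher and 29 lower in S265D.

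**Figure D1:**
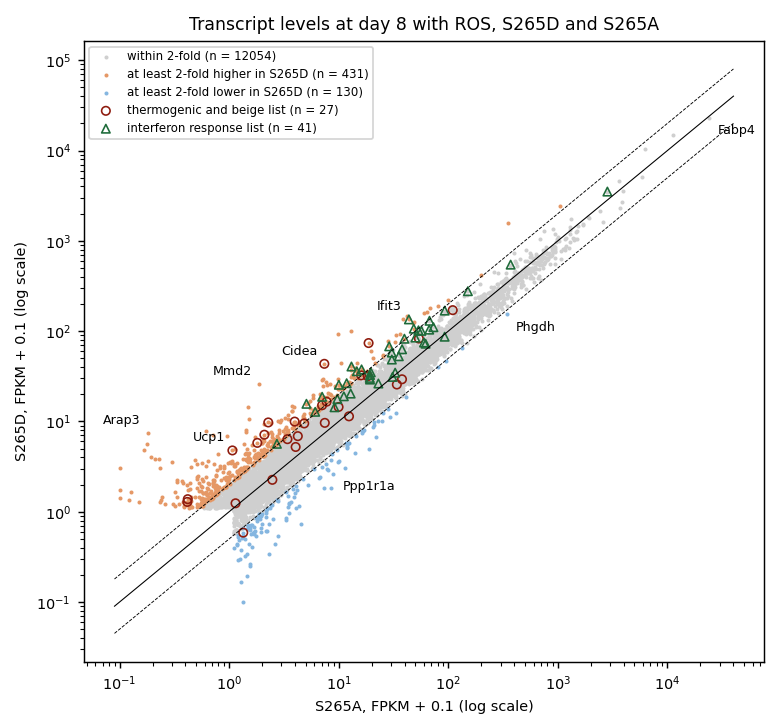
FPKM + 0.1 of each gene in S265A (horizontal axis) and S265D (vertical axis), both on log scales, 1 sample each; the solid line marks equality and the dashed lines 2-fold. Orange points (431 genes) lie above the upper dashed line and blue points (130 genes) below the lower one, and members of the thermogenic list (circles) and the interferon list (triangles) lie mostly above equality.

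The WT samples, which carry the same label, differed by more than this. Between WT A and WT B 2391 of 12801 genes were past 2-fold (18.7%), 987 higher in WT A and 1404 lower. The absolute log2 ratio had a median of 0.46 in that pair and 0.25 between S265D and S265A. The day 0 pair, harvested before differentiation, was closer, with a median of 0.11 and 67 genes past 2-fold (0.558%). The distance between the mutants therefore fell between the distances of these pairs. Gene by gene, the difference was larger than that of the WT pair for 240 of the 431 genes higher in S265D, for 72 of the 130 lower, and for 4016 of all 12615 (31.8%). Of the 431, 135 had S265A below and S265D above both WT samples, 16.3% of all genes so placed. Another 86 had both mutants within the range of the WT pair, 1.76% of all genes so placed. Of the 130, 35 had S265D below and S265A above both WT samples, 4.59% of all genes so placed. Another 28 had both within that range, 0.572% of all genes so placed. The 431 and 130 were 3.42% and 1.03% of all genes. Genes were called for their large differences, so the shares among them follow in part from the call rule.

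Beige adipocytes arise in white fat and burn lipid in mitochondria uncoupled by UCP1. The genes that mark them were the fixed list with the largest median difference among those with 5 or more genes used. Of 39 thermogenic and beige genes listed, 27 were used, 12 were past 2-fold higher in S265D and 1 was past 2-fold lower, against 3.42% and 1.03% of all genes. Among the 12, Ucp1, Cited1 and Otop1 were used only because S265D reached 1 FPKM, and the lower member, Lhx8, only because S265A did. The median log2 ratio of the 27 was 0.90, beside -0.0095 over all genes, and 22 of 27 were above 0, as were 6175 of all 12615. The list was written with the study's interest in these genes in view, so its direction is not independent evidence. WT A and WT B differed on the same members by a median of 1.55, and only 7 members differed more between the mutants than between those WT samples.

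Ucp1, the uncoupling protein itself (chr8:85814247-85822355, mm9), had 4.67 FPKM in S265D and 0.972 in S265A, which rested on 38.1 and 8.46 kb of mapped bases. WT A had 12.1 FPKM, WT B 0.724, S265D-H1120Y 0.0528, untransduced day 8 cells with ROS 9.90 and those without ROS 0.0970. S265D thus lay between WT B and WT A, and S265A was close to WT B. The log2 ratio of the mutants was 2.16, smaller than the 3.89 of the WT pair. Cidea, a lipid droplet protein characteristic of brown and beige fat, was also high in S265D and WT A, with 43.4 FPKM in S265D and 7.29 in S265A. The WT pair had 33.2 (WT A) and 7.03 (WT B), and S265D-H1120Y had 2.35. Its log2 ratio of 2.56 was the highest of the list and exceeded the WT pair's 2.23.

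The regulators of the programme differed in part. Ppara, the PPAR isotype that drives fatty acid oxidation, had 5.69 FPKM in S265D and 1.71 in S265A, with 12.1 and 1.83 in WT A and WT B. Ppargc1a, the coactivator PGC-1α, had 9.86 and 3.86 FPKM, with 9.11 and 3.14 in the WT pair. Each of these was past 2-fold, and in each S265A lay near WT B. Its relative Ppargc1b stood at 9.54 and 7.37 FPKM, within 2-fold, and Ebf2, a transcription factor that commits precursors to the brown lineage, at 6.26 and 3.31 FPKM. Prdm16, the zinc finger regulator of brown and beige fate, was below the FPKM limit with 0.110 and 0.0777 FPKM, against 1.25 in WT A. Of the 16 genes for partners of the JMJD1A complex, Ppargc1a alone was past 2-fold, and the median was 0.16.

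The other members past 2-fold are named here because they passed. Adrb3, the adipocyte β-adrenergic receptor that signals to protein kinase A, had 9.65 FPKM in S265D and 2.18 in S265A. WT A and WT B were alike at 5.48 and 5.58 FPKM, so S265D lay above and S265A below both, and the log2 ratio of 2.10 stood against -0.027 in the WT pair. Tbx1, a T-box factor used as a beige marker, also exceeded its WT spread, with 7.03 and 2.00 FPKM against 1.5 and 1.43. Cox8b, a cytochrome oxidase subunit of thermogenic fat, had 73.7 and 18.6 FPKM, with 74.6 in WT A and 13.5 in WT B. Elovl3, an elongase of fatty acids, had 32.3 and 15.9 FPKM, with 70.4 and 2.57 in the WT pair. For Cox8b and Elovl3 the WT samples lay farther apart than the mutants. Cpt1b, which admits fatty acids to mitochondria, had 15 and 6.95 FPKM, and Gyk, glycerol kinase, 16.4 and 7.66 FPKM. Cited1 (1.28 and 0.319 FPKM) and Otop1 (1.19 and 0.316 FPKM) passed at low levels. Lhx8, a homeobox factor also listed as a brown marker, went the other way at 0.487 and 1.25 FPKM.

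Members within 2-fold covered both directions. Fgf21, a hormone secreted by thermogenic fat, had 9.40 FPKM in S265D and 4.74 in S265A (log2 ratio 0.97), and Plin5, a perilipin of oxidative tissues, had 31.6 and 18.3 (log2 ratio 0.78). Kcnk3, a potassium channel, had the lowest ratio among members above 5 FPKM, at -0.40. Dio2, which activates thyroid hormone, was near 0 at 0.0619 and 0.0129 FPKM, and Bmp8b, Ckmt2, Slc27a2, Zic1 and Epsti1 were listed at 0 in both mutants.

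**Figure D2:**
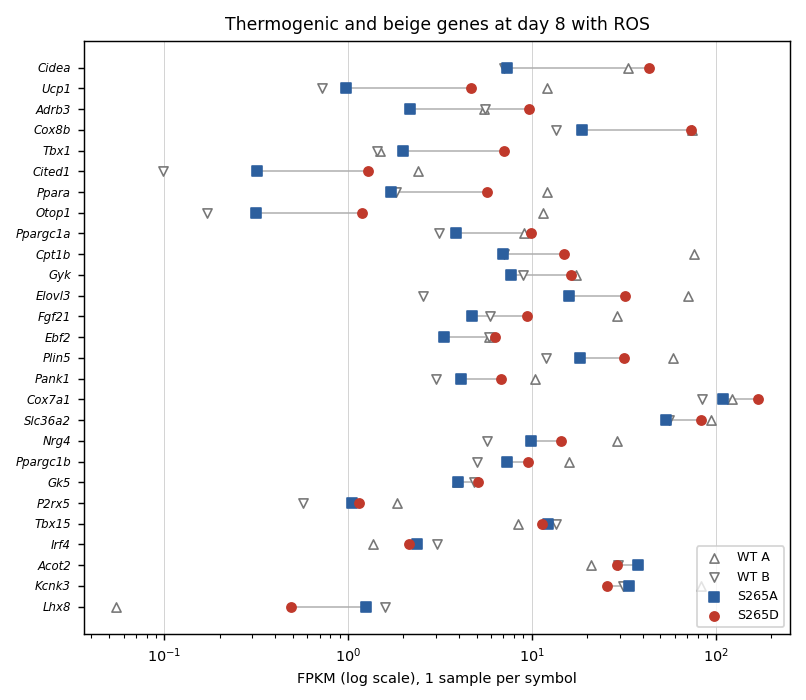
FPKM (horizontal axis, log scale) of the 27 thermogenic and beige genes used, ordered from the highest to the lowest S265D over S265A ratio, with 1 symbol per sample. The red circle (S265D) lies to the right of the blue square (S265A) in 22 of 27 genes, and the open triangles of WT A and WT B often lie farther apart than the mutants.

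S265D-H1120Y carries the same residue as S265D at this position, and its values are given without a comparison. Elovl3 had 22 FPKM there, Cox8b 57.8, Ppargc1a 8.75, Ppara 2.39, Adrb3 2.47 and Tbx1 0.769. The day 8 cells without hairpin shared no sample with the mutants. Of the 310 genes used that were at least 2-fold higher with than without ROS in those cells (2.46% of genes), 52 were higher in S265D, 16.8% of that set and 12.1% of the 431, and 3 were lower. Of the 1050 genes at least 2-fold lower with ROS (8.32%), 129 were higher in S265D, 12.3% of that set and 29.9% of the 431, and 47 were lower. The 47 and 3 were 36.2% and 2.31% of the 130 genes lower in S265D. Both called sets thus included more genes that were lower with ROS than genes that were higher with it. Among the 431 both shares were above those among all genes, and among the 130 only the share lower with ROS was.

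Lists of fuel oxidation in mitochondria and peroxisomes had single members past 2-fold, against 3.42% higher and 1.03% lower of all genes. In the mitochondrial fatty acid oxidation list, 1 of 29 was past 2-fold (Cpt1b), the median was 0.17, and Hadhb of the trifunctional protein was just short at 277 and 141 FPKM. The TCA cycle list had none of 19 past 2-fold and a median of 0.16, with 17 members above 0, as were 6175 of all 12615 genes. In the list of respiratory chain and ATP synthase subunits, Cox8b alone of 81 was past 2-fold, and the median was 0.036. In the peroxisomal list, Acaa1b, a thiolase, was higher at 164 and 63.3 FPKM, and Acox2, an oxidase of branched chains and bile acid intermediates, was lower at 7.73 and 16.7 FPKM, with a median of 0.10 over 21 genes. In the WT pair the medians of these lists were 0.77, 0.92, 0.60 and 0.39, in the same order.

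Transcripts of the mitochondrial chromosome were taken up after their values were seen, since only mt-Nd4 of the fixed mitochondrially encoded list matched a symbol. All 10 were higher in S265D, 4 of them past 2-fold. Of all 12615 genes, 6175 had a log2 ratio above 0 and 3.42% were past 2-fold higher. The 4 past 2-fold carry clone names, and the protein-coding mt-Nd4 had 1341 FPKM in S265D and 906 in S265A. Cox2, cytochrome oxidase subunit II, had 10271 and 6206 FPKM, and Cytb, cytochrome b, 1766 and 1318. For mt-Nd4, Cox2 and Cytb WT A had 1437, 11380 and 2150 FPKM and WT B 798, 6709 and 1129. In each of these genes the WT samples lay farther apart than the mutants. Summed, the 10 transcripts had 32409 FPKM in S265D and 21351 in S265A, while WT A and WT B summed to 32820.2 and 21948. A further symbol, Atpase6, which these files place on chromosome 1, had 2413 and 1049.7 FPKM, and reads shared with the mitochondrial gene could not be separated.

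Lipid handling showed opposite members. In the lipid droplet and lipolysis list 3 of 24 were higher, against 3.42% of all genes, and the median was -0.068. These were Cidea, Gyk and Adrb3, which are also among the 12 of the thermogenic list. Lipogenesis had no member past 2-fold among 19, with a median of -0.21, although Scd1, the stearoyl-CoA desaturase, had one of the 5 largest differences in FPKM at 4615 and 3595. Cholesterol synthesis had none of 24 past 2-fold and a median of -0.08, with Pmvk lowest at 74.4 and 148 FPKM. The white-selective list had 1 member of 11 lower, against 1.03% of all genes, and a median of -0.18. That member was Igfbp3, a binding protein of insulin-like growth factors, at 46.5 and 95.2 FPKM. For Igfbp3 the WT samples lay at 49.0 and 7.87 FPKM, so S265A was above both.

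Of 30 genes of glycolysis and glucose uptake, 4 were past 2-fold higher in S265D and none lower, against 3.42% and 1.03% of all genes, with a median of 0.052. Slc16a3, a lactate exporter, had 9.83 FPKM in S265D and 2.84 in S265A against 3.78 and 4.04 in the WT pair. Pdk4, the kinase that switches pyruvate dehydrogenase off, had 190.4 and 80.4 FPKM against 64.6 and 68.0. In both genes S265D was above both WT samples. Ldhb and Eno2 were the others. The abundant Aldoa (2718 and 3852 FPKM) and Gapdh (5138 and 5860.4 FPKM) were lower in S265D within 2-fold and had 2 of the 5 largest FPKM decreases, with Lgals1, Fabp4 and Ftl1. Glycogen genes were singled out after their values were seen. Ppp1r3b, Ppp1r3c and Ppp1r3d, which target protein phosphatase to glycogen, had 14.7, 24.6 and 10.6 FPKM in S265D and 3.65, 7.03 and 1.41 in S265A. WT A had 23.8, 35.2 and 13.6 FPKM and WT B 2.49, 10.1 and 4.27, so the WT pair was ordered the same way. The median log2 ratio over the 5 members used was 1.79 between the mutants and 1.65 in the WT pair. Ppp1r3e and Ppp1r3f of the same family were within 2-fold. Gys2, a glycogen synthase, had 3.29 and 1.01 FPKM.

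Among the fixed lists with 5 or more genes used, the next highest median was that of the response to interferons, antiviral cytokines whose signal ends at a promoter element shared by their target genes. All 41 members found were used, 13 were past 2-fold higher in S265D and none was lower, against 3.42% and 1.03% of all genes. Of the 41, 40 had a log2 ratio above 0, as did 6175 of all 12615 genes. The median log2 ratio was 0.82, and the lowest was Psmb9, an immunoproteasome subunit, at -0.095. On these genes WT A lay below WT B, with a median log2 ratio of -1.32 and 28 members past 2-fold, and 9 of 41 differed more between the mutants than within the WT pair. The WT pair was thus ordered in opposite ways on the thermogenic and interferon lists, whereas S265D was the higher mutant on both.

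Neither Stat2 nor the IRF factors named here were past 2-fold. Stat2, a transducer of type I interferon signals, had 32.6 FPKM in S265D and 19.2 in S265A. Irf7, which amplifies the response, had 169 and 92.7 FPKM, and Irf9 31.0 and 30.9, a log2 ratio of 0.0055. Irf1, an early target, had 26.2 and 22.9 FPKM. Among the effectors, Ifit3, an antiviral protein, had 135 FPKM in S265D and 43.6 in S265A, with 38.8 and 220.0 in WT A and WT B and 63.5 in S265D-H1120Y. Rsad2 (viperin) had the highest ratio, 1.63, from 40.5 and 13.0 FPKM, with 5.76 and 56.5 in the WT pair. In Ifit3 and Rsad2 both mutants lay between WT A and WT B.

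Other members past 2-fold are named because they passed. The oligoadenylate synthetases Oas1a, Oas2 and Oas3 had 35.8, 37.6 and 15.6 FPKM in S265D and 14.5, 16.1 and 4.98 in S265A. For these genes WT A had 17.1, 11.4 and 2.19 FPKM and WT B 45.4, 37.8 and 17.4. Ifit1 (67.8 and 28.8 FPKM), Mx2 (25.4 and 9.93) and Herc6 (18.7 and 6.96) followed the same order, as did Ifit2, Ifi44, Oasl2, Mx1 and Iigp1. For Iigp1, an immunity-related GTPase, S265D at 26.4 FPKM was above and S265A at 11.7 was below both WT samples, which were at 21.4 and 22. B2m, the light chain of MHC class I, was within 2-fold at 3511 and 2829.8 FPKM but had one of the 5 largest FPKM increases. Tgtp2 and Zbp1, interferon-inducible genes outside the list, were among the 15 highest ratios, Zbp1 with 44.5 and 10.4 FPKM. Of the macrophage and leukocyte markers, Ptprc and 5 others were listed at 0 in both mutants, while Cd68 stood at 10.3 and 9.0 FPKM and Cd14 at 1.13 and 0.738, and their part in these differences was not tested. In the day 8 cells without hairpin these genes were lower with ROS, with a median log2 ratio of -1.24, and the part of any difference in ROS exposure between the mutants was not tested.

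**Figure D3:**
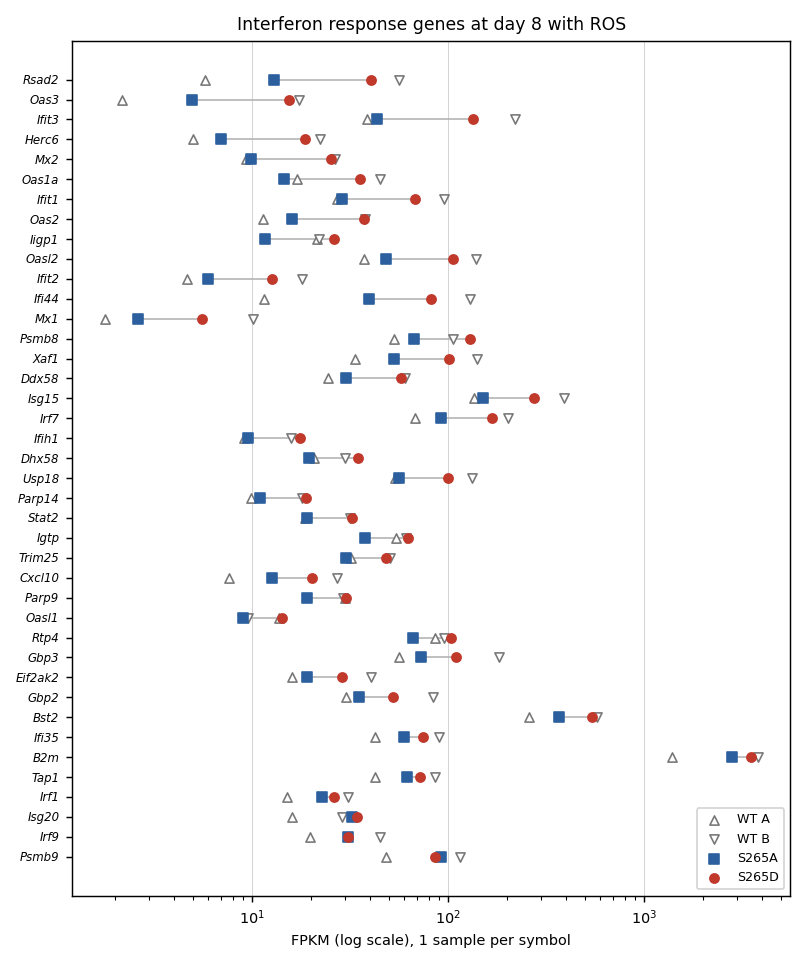
FPKM (horizontal axis, log scale) of interferon response genes, ordered from the highest to the lowest S265D over S265A ratio, with 1 symbol per sample. The red circle (S265D) lies to the right of the blue square (S265A) in every gene drawn except Psmb9, and in most rows WT A (upward triangle) marks the low end and WT B (downward triangle) the high end.

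Because these genes shared a direction, their promoters were searched for the interferon-stimulated response element, as a pair of GAAA separated by any 2 bases, on either strand, in the 250 bases before and 50 after each RefSeq start site (GRCm38.p6, a later build than the files, matched by symbol). It was present in 16 of the 31 list members with a promoter entry and in 3.44% of all 32851 promoters. The list was made of interferon targets, so its share does not bear on the difference between the mutants. Of its 9 matched members past 2-fold higher, 5 held the element. Of genes higher in S265D, 27 of 249 matched genes held it (10.8%), these 5 included. Of those lower it was in 3 of 74 (4.05%), and of all genes used in 3.77%. These are descriptions of letters, not of bound sites. The stretches below, 5′ to 3′ on the strand of the gene, show the matches, in capitals, of effectors past 2-fold, 156, 120 and 75 bases before the start site. Those of Ifit3 and Rsad2 match as the reverse complement. They lie at chr19:34583348-34583407 (plus strand), chr12:26456538-26456597 (minus strand) and chr5:120777700-120777759 (minus strand).
Ifit3: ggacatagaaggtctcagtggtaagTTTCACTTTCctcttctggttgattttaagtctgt
Rsad2: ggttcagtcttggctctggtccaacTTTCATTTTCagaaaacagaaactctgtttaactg
Oas3: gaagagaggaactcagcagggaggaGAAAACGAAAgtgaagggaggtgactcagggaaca

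The thermogenic list was searched in the same windows for the PPAR response element, written as a direct repeat of AGGTCA with any 1 base between, on either strand, and for the hexamer AGGTCA, which the repeat contains. The full element was in none of 16 matched members and in 13 of all promoters. The hexamer was in 4 of 16, Ucp1, Plin5, Cited1 and Nrg4, and in 16.3% of all promoters. The known enhancer of Ucp1 lies outside such a window.

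The precursor, matrix and signalling lists each held members past 2-fold, beside 3.42% higher and 1.03% lower of all genes. Of 19 preadipocyte genes, 3 were higher and 1 lower, with a median of 0.25. Thy1 (CD90), a mesenchymal surface protein, had 6.93 FPKM in S265D and 0.616 in S265A, against 5.36 and 15.1 in the WT pair, so S265A was the low sample. Ly6a (Sca-1) had 417 and 199 FPKM, and Wisp2, a secreted factor of precursors, 26.9 and 12.3. Dlk1, the preadipocyte factor that holds back differentiation, was the lower member with 0.0923 and 1.35 FPKM, against 0.148 and 0.174 in the WT pair. Thy1 was used only because S265D reached 1 FPKM, and Dlk1 only because S265A did.

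Matrix proteins and proteases had 5 of 36 higher and 2 lower, against 3.42% and 1.03% of all genes, with a median of 0.066. Ctgf, a target of YAP and TGF-β, was the highest at 8.62 and 3.20 FPKM, and Thbs2, a thrombospondin, had 222 and 100.3. Fmod, fibromodulin, was the lowest at 0.238 and 1.36 FPKM and was used only because S265A reached 1 FPKM. Collagens had 2 of 20 higher, Col27a1 with 11.6 and 3.35 FPKM and Col7a1 near 1 FPKM, and a median of 0.023. In the Wnt and TGF-β list 5 of 22 were higher and 1 lower (Gdf5). Grem1, an antagonist of BMPs, had 18.1 and 5.73 FPKM, with 0.392 in WT A and 19.3 in WT B. Dkk3, a secreted Dickkopf-family protein, had 1.63 FPKM in S265D and was listed at 0 in S265A, with 0.0159 and 1.80 in the WT pair. It was used only because S265D reached 1 FPKM. The median of that list was 0.12. Actomyosin genes had 2 of 24 higher, Acta1 and Tagln, with a median of 0.042. Chemokines and cytokines had 2 of 19, Ccl5 (181 and 68.2 FPKM) and Saa3, with Ccl9 lower and a median of 0.17. In the WT pair the matrix and chemokine lists had medians of -1.20 and -1.30, farther from 0 than between the mutants.

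The stress lists had negative medians. Of all 12615 genes, 6440 were below 0 and 1.03% were past 2-fold lower. The list of the unfolded protein and integrated stress responses had the lowest median of the fixed lists, -0.32, with 22 of 28 below 0 and 1 past 2-fold. That member was Phgdh, the entry enzyme of serine synthesis, at 153 FPKM in S265D and 342 in S265A, with 176 and 269 in the WT pair. The oxidative stress list had a median of -0.20 and 1 of 27 past 2-fold, the glutathione transferase Gsta3 at 1.06 and 4.27 FPKM. The cell cycle list had 1 of 52 past 2-fold, the inhibitor Cdkn1c, lower in S265D at 4.36 and 13.9 FPKM, and a median of -0.048. For Cdkn1c both mutants lay between WT B (2.27) and WT A (59.4). The adrenergic and PKA list had Adrb3 higher, Adcy5, an adenylyl cyclase, lower at 5.71 and 12.4 FPKM, and a median of -0.018 over 25 genes.

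**Figure D4:**
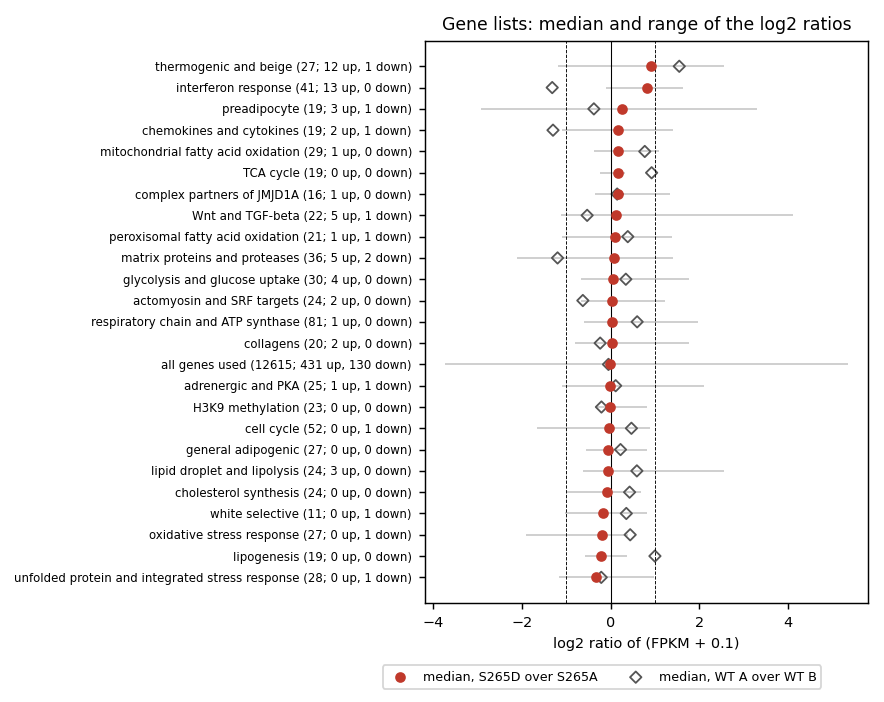
Median log2 ratio of each fixed gene list with at least 5 genes used, and of all genes used (horizontal axis; list names give the number used and the numbers past 2-fold), S265D over S265A as filled circles with the range of members as a grey line, and WT A over WT B as open diamonds; dashed lines mark 2-fold. Of these, the thermogenic and interferon lists have the highest medians between the mutants (0.90 and 0.82), and in the WT pair their medians lie on opposite sides of 0 (1.55 and -1.32).

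Several of the 15 highest ratios at 5 FPKM or more were of genes outside the fixed lists. Arap3, a GTPase-activating protein, had 7.38 FPKM in S265D, from 191 kb of mapped bases, and 0.0827 in S265A, from 2.29 kb. WT A had 0.0102, WT B 0.0517, S265D-H1120Y 0.0748 and day 8 cells without hairpin 0.0225 and 0.0176 FPKM, with or without ROS. Only S265D was above 1 FPKM among the 11 samples. Snurf, an imprinted transcript of the Snrpn locus (chr7:67127388-67150042), had 5.50 FPKM in S265D and 0.0765 in S265A, with 1.92 and 1.32 in the WT pair and 0.0883 in S265D-H1120Y. Its neighbour entry Snrpn overlaps it and shares its reads, with 4.77 and 0.0676 FPKM, so they count as one locus. S265A and S265D-H1120Y were the low samples there. Peg10, another imprinted gene, had 14.2 and 1.40 FPKM, with 6.67 and 1.16 in the WT pair.

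Mmd2, a membrane protein of the PAQR family, had 25.8 FPKM in S265D and 1.76 in S265A, against 3.23 and 4.07 in WT A and WT B. Here S265D stood far above the WT pair. Sdr39u1, a short-chain dehydrogenase, had 7.78 and 0.519 FPKM, with 7.16 and 1.01 in the WT pair. Lims2, an adhesion adaptor, had 6.72 and 0.858 FPKM and Sptlc3, a subunit of serine palmitoyltransferase, 28.8 and 6.90. Il31ra, a cytokine receptor, had 7.54 and 1.34 FPKM, and Serpinb9e, a serine protease inhibitor, 7.89 and 1.34, while WT A and WT B had 0.181 and 11. Of the Serpinb9 family, looked at after these values were seen, 5 of 6 members used were past 2-fold higher, against 3.42% of all genes. These genes lie side by side and are close in sequence, so their reads may be shared. Of the family, Serpinb9c (1.54 and 0.510 FPKM) and Serpinb9g (1.85 and 0.459 FPKM) were used only because S265D reached 1 FPKM. Its median log2 ratio in the WT pair was -4.36, and 1 of the 6 members differed more between the mutants than within that pair.

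Genes lower in S265D had smaller ratios. An entry on chromosome 12 without a gene name had the lowest ratio among genes of 5 FPKM or more, with 1.75 FPKM in S265D and 8.42 in S265A, but WT A and WT B spanned 18.3 to 1.32. Myo1e, an unconventional myosin, had 1.74 and 7.30 FPKM, with 1.58 and 3.41 in the WT pair. Slc44a3, a choline transporter-like protein, had 4.86 and 18.8 FPKM against 12.7 and 8.62, which put the mutants on opposite sides of the WT pair. Nrip2, a nuclear receptor partner, had 2.96 and 11.2 FPKM against 0.721 and 2.22, and S265D-H1120Y had 12.6. Ppp1r1a, a phosphatase inhibitor controlled by protein kinase A, had 2.53 and 8.82 FPKM, whereas WT A had 51.8 and WT B 1.93. Ptn, the growth factor pleiotrophin, had 6.66 and 21.7 FPKM, inside the WT range of 4.84 to 27.8.

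The remaining low ratios spanned -1.51 (Ptgis, prostacyclin synthase) to -1.40 (Osgin1, a gene induced by oxidative stress). Sparcl1, a matrix protein, had 12.3 FPKM in S265D and 33.2 in S265A, and Vdr, the vitamin D receptor, 1.88 and 5.12. Sh3tc2 (3.56 and 9.95 FPKM) overlaps the entry mKIAA1985 and counts as one locus with it. Here S265A was above both WT samples (2.77 and 3.65 FPKM) and S265D was near them.

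Some further families were looked at after their values were seen. Of 78 cytosolic ribosomal protein genes, 75 were lower in S265D, as were 6440 of all 12615 genes. None of the 78 was past 2-fold, with a median log2 ratio of -0.26 and a median in the WT pair of -0.042. Mitochondrial ribosomal proteins had a median of -0.0071 over 76 genes. Of 270 zinc finger genes with Zfp symbols, 29 were higher past 2-fold (10.7%, against 3.42% of all genes) and none lower, with a median of 0.27. In the WT pair their median was -0.20, with 9 past 2-fold higher and 38 lower in WT A. Among the 29, Zfp292 had 7.60 FPKM in S265D and 2.29 in S265A. Others of the 29, such as Zfp618 (1.12 and 0.245 FPKM) and Zfp677 (1.06 and 0.223 FPKM), were used only because S265D reached 1 FPKM. The share of Zfp genes called higher therefore follows in part from the filter. Noncoding entries were called more often than coding ones, 41 of 430 higher (9.53%) against 372 of 11504 (3.23%). The part of expression level in this contrast was not tested. The 41 include the 4 mitochondrial entries past 2-fold described above. Also among the 41 are the nuclear RNAs Malat1, with 147 and 42.3 FPKM, and Neat1, with 126 and 48.7. For these RNAs WT A (25.8 and 34.6 FPKM) and WT B (256 and 196) lay farther apart than the mutants.

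Differences moved with base composition. Transcript GC content could be assigned to 86.0% of the genes used. In the decile of genes with the lowest GC content the median log2 ratio was 0.29, and 7.74% were called higher in S265D and 0.184% lower. In the decile with the highest GC content the median was -0.19, with 3.13% higher and 2.03% lower. The WT pair ran the other way, from -0.22 to 0.17. Over deciles of exon length the median went from -0.12 (shortest) to 0.15 (longest). The Zfp genes had a median GC content of 45.9% and all genes 50.3%. After each decile was centred on its own median, 327 of all 10848 genes with a GC value were past 2-fold higher. Of the 264 Zfp genes with a GC value, 12 were past 2-fold higher, with a median of 0.22. The thermogenic list had a median GC content of 51.7% and after the same centring 12 of 27 members were past 2-fold higher, with a median of 0.88. The interferon list, at 49.2%, had 11 of 41 past 2-fold and a median of 0.77. Under this centring 98 of the 99 named genes with a GC value had the sign they had without it.

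**Figure D5:**
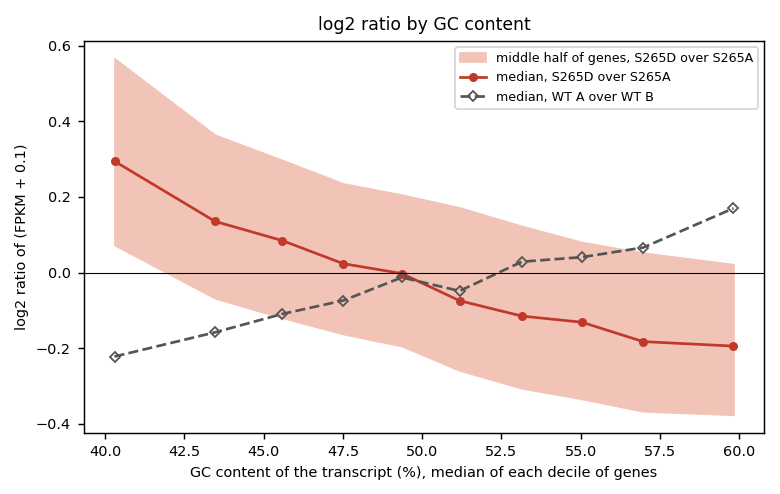
Log2 ratio of (FPKM + 0.1) (vertical axis) over deciles of genes ordered by GC content of the transcript (horizontal axis, percent), as the median for S265D over S265A (filled circles, with the range between the quartiles shaded) and for WT A over WT B (open diamonds). The median for the mutants goes from 0.29 at the lowest GC content to -0.19 at the highest, and that of the WT pair from -0.22 to 0.17.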

How the data were processed

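RNA-seq was performed on im-scWAT cells. The authors prepared TruSeq libraries, aligned the reads to UCSC transcripts and the mouse genome (mm9) with Burrows-Wheeler aligner, and calculated strand-specific values. The authors deposited FPKM per transcript, and a further deposited column holds the signal, as coverage in mapped bases. No read counts were used. Total mapped bases ranged from 3.10 to 5.29 Gb over the series, which sets the precision of low values.

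Samples were grouped by their labels. The labels state that ROS was removed on day 7, whereas the methods of the study describe it until day 8. Sense rows flagged as representative were used, and log2 ratios took a pseudocount of 0.1. Named genes were the 15 highest and 15 lowest ratios at 5 FPKM or more in either mutant, clone names excepted, the 5 largest FPKM differences each way, up to 5 members of each list with its extremes, and Kdm3a. Others are said to be chosen for passing or after their values were seen. Genes, lists and rules were chosen with earlier results of these data known. Alternatives changed the FPKM minimum, the pseudocount, the transcript, the scaling and the centring. Software was pandas 2.3.3 and numpy 2.4.6 under Python 3.11.15. Plots used matplotlib 3.10.9. One member of the interferon list is counted in its totals but not reported singly here.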

Additional observations from a re-analysis of the deposited data

How the results depend on the processing

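No paired analysis was possible because each mutant had 1 sample and no replicate number. With 1 sample per mutant, leaving out a sample leaves no comparison. Of 216 list medians recomputed under 9 alternatives, 214 stayed within the SD of the WT pair. The partners of the JMJD1A complex moved to a log2 ratio of 0.0096 at a minimum of 5 FPKM. The adrenergic list moved to 0.065 when the libraries were scaled to the same sum outside the 100 highest genes. Staying within the SD did not require the same sign. At a minimum of 5 FPKM the median went from 0.12 to -0.040 for the Wnt and TGF-β list. It went from 0.023 to -0.092 for collagens and from 0.042 to -0.127 for actomyosin genes. Genes higher and lower in S265D numbered 764 and 363 at a minimum of 0.1 FPKM, 190 and 45 at 5 FPKM, 259 and 64 at 1 FPKM in both mutants, and 206 and 54 with a pseudocount of 1. Centring within deciles of GC content, added after seeing the data, gave 327 and 81 among the 10848 genes with a value. The stricter minimum tests fewer genes by construction, and the larger pseudocount shrinks ratios of low genes. The other alternatives stayed within 1.5 times the counts reported. Higher members numbered between 9 and 13 in the thermogenic list and between 11 and 16 in the interferon list. No gene past 2-fold reversed among the 106 genes recomputed, whereas Isg20, Psmb9 and Fabp4, all within 2-fold, changed sign under at least 1 alternative. Low FPKM rest on few mapped bases, and counting error was not modelled.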

Other observations

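Antisense rows, kept out of the comparison above, differed as well. Of 942 antisense rows with an FPKM of at least 1 in either mutant, 37 were at least 2-fold higher and 90 at least 2-fold lower in S265D, together 13.5%. In the WT pair 190 and 97 of 1016 antisense rows were past 2-fold, 28.2%. Sense and antisense counts thus leaned in opposite directions between the mutants.

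Transcription factors and enzymes outside the lists, chosen after their values were seen, included a GATA pair of opposite order. Gata6 had 3.25 FPKM in S265D and 0.622 in S265A, and Gata4 had 0.330 and 1.08 FPKM. The circadian repressors Bhlhe40 and Bhlhe41 had 53.6 and 5.52 FPKM in S265D and 25 and 1.28 in S265A, and for both S265D lay above and S265A below both WT samples. Ephx2, an epoxide hydrolase, had 93.0 and 35.9 FPKM, and Nudt7, a peroxisomal CoA diphosphatase, 37.1 and 12.8. Pgr, the progesterone receptor, had 3.72 and 0.128 FPKM, with 2.75 in WT B and listed at 0 in WT A.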
